A study of Mus musculus with 2 samples.

Results

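Killer lectin-like and natural cytotoxicity receptors are the surface sensors by which natural killer (NK) cells and cytotoxic T cells read a target cell. Activating receptors signal through small adaptor proteins and recognize stress-induced or foreign ligands, whereas inhibitory receptors carry their own signaling motif and recognize molecules that healthy cells display. In tumors, the balance of both kinds on NK cells and CD8+ T cells is known to bear on whether a malignant cell is killed. Described here are 9 such genes, Klrk1, Klrb1c, Klrd1, Klrc1, Klrc2, Klra8, Klre1, Klrg1 and Ncr1, taken by symbol from the 32285 genes listed in the count tables. All 9 were listed and all 9 had UMIs (unique molecular identifiers, each standing for 1 captured transcript).

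The data came from droplet single-cell RNA sequencing of orthotopic pancreatic tumors in male C57BL/6J mice, purchased at 5 to 6 weeks of age. The tumors were grown from K210 cells, a mouse pancreatic tumor line. The PBS group received the vehicle, and the cmExoaCD11b group received exosomes from mouse embryonic fibroblasts that were loaded with cGAMP, an agonist of STING, and with the mRNA of the cytokine IL-12, and were coated with antibodies to CD11b. Each group was 1 library made from 3 pooled mice, collected 48 h after treatment, so no difference between the treatments has a replicate and none was tested. All intervals below are 95% intervals for counting error only, which leave out the spread between mice, and UMIs from 1 cell are not independent.

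After cell calling and removal of likely doublets, 6831 cells remained in PBS and 7064 in cmExoaCD11b, with medians of 3460 and 4112 UMIs, and 16 of the 13895 barcodes occurred in both libraries. Cells were gated by UMIs of lineage genes, none of which was a receptor described here. The NK gate required UMIs of at least 3 of Nkg7, Gzma, Prf1, Eomes, Txk, Il2rb and Xcl1 and none of the CD3 chains, Trac, Cd5, Cd4, Cd8a and Cd8b1. It held 23 cells in PBS and 88 in cmExoaCD11b, while the CD8 T gate held 147 and 392 cells and the CD4 T gate 138 and 244. The share of the library in the NK gate was 0.337% (0.214 to 0.505%) in PBS and 1.25% (1.00 to 1.53%) in cmExoaCD11b. Among genes that no gate used, Fcer1g, an NK and myeloid adaptor, stood at 2215 and 1923 UMIs per 1000000 of the gate (CPM) in the NK gate and at 67.1 and 110 CPM in the CD8 T gate. The NK gate also held Trbc2, a T cell receptor constant gene, at 115 and 108 CPM, against 1188 and 860 CPM in the CD8 T gate. The other constant gene, Trbc1, was closer, at 231 and 322 CPM in the NK gate and 417 and 574 CPM in the CD8 T gate. Cd2 stood at 205 and 211 CPM against 236 and 297 CPM, and Lck at 346 and 292 CPM against 446 and 464 CPM. NK cells can express these genes too, and the part of T cells in the NK values was not tested.

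Of the 9 genes, 8 lie on mouse chromosome 6 and Ncr1 lies on chromosome 7. Klrk1 spans chr6:129610323-129623864, Klrd1 spans chr6:129591782-129598775 and Klra8 spans chr6:130115226-130129898 (GRCm38, GENCODE M21). Klrg1 lies apart from this cluster at chr6:122270596-122282882. The promoter table from RefSeq (GRCm38.p6) matched 7 of the 9 genes, all but Klrd1 and Klrg1. In 6 of these 7 the 250 bases upstream of the RefSeq start held the Runx core TGTGGT, against 14.2% of 27025 promoters. The core was searched on both strands and reads ACCACA on the other strand, and the first entry listed was used for each gene. Klra8 was the exception. The windows of Klre1 and Klrb1c and both matches of Klrc2 lie inside the GENCODE spans of these genes, which begin further upstream. The upstream sequences of Ncr1, Klrk1 and Klrc2, which hold the core, and of Klra8, which does not, are shown because these genes span the range from NK-restricted to shared expression described below. Capitals mark the core, and each sequence runs 5′ to 3′ on the strand of its gene. The places are chr7:4337465-4337714 on the plus strand for Ncr1 and, on the minus strand, chr6:129623865-129624114 for Klrk1, chr6:129660597-129660846 for Klrc2 and chr6:130129899-130130148 for Klra8.
Ncr1: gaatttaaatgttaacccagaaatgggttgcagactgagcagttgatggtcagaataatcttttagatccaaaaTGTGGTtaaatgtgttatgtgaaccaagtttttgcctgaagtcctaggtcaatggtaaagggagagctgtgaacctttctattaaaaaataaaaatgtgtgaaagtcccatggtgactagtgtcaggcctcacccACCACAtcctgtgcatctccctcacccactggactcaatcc
Klrk1: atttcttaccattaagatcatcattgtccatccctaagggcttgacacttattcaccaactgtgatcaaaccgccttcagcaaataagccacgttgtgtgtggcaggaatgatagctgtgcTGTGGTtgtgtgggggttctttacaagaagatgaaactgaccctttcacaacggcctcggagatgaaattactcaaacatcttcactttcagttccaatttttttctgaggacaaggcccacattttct
Klrc2: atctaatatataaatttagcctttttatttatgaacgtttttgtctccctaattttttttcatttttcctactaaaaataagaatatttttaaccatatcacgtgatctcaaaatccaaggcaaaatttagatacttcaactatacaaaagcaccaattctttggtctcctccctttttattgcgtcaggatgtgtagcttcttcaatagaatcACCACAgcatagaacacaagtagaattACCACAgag
Klra8: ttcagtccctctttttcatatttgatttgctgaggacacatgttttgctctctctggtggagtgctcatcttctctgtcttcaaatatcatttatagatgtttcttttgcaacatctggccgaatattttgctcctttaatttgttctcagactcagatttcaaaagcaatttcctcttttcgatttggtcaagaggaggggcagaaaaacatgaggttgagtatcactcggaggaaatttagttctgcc
None of the 7 windows held the T-box core AGGTGT (12.0% of all promoters), the GAS motif TTCNNNGAA (7.18%), the Ets motif CAGGAAGT (2.73%), the CRE motif TGACGTCA (1.62%) or the interferon response element ISRE (3.04%). The motifs were picked with the genes known, and a match describes only the letters in this window.

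The receptors were densest in the NK gate in both libraries. Their UMIs together made up 5417 CPM (4913 to 5959) with PBS and, with cmExoaCD11b, 5032 CPM (4794 to 5279), a ratio of 0.929 between the libraries. The CD8 T gate held 1147 CPM (1082 to 1216) and 1185 CPM (1135 to 1237). The CD4 T gate held 93.9 CPM (72.7 to 119) and 276 CPM (247 to 308). The NK sum was thus 4.72 times the CD8 T sum in PBS and 4.25 times in cmExoaCD11b, and the CD8 T sum was 12.2 and 4.29 times the CD4 T sum. A typical NK cell had UMIs of 6 of the 9 genes in either library, a CD8 T cell of 2 and a CD4 T cell of 0. At least 3 of the genes were found in 87.0% and 92.0% of NK cells, 43.5% and 41.1% of CD8 T cells, and 0.725% and 6.15% of CD4 T cells. Outside the NK and T gates, B cells gave sums of 8.05 and 4.40 CPM and neutrophils 3.28 and 4.01 CPM. Median depths were 4742 to 6556 UMIs in B cells and 3800 to 5336 in neutrophils. The sums were higher in cells gated by keratin genes, at 39.0 and 45.2 CPM. There a receptor UMI was found in 37.5% and 35.5% of cells (medians of 18750 and 18413 UMIs). In the macrophage or monocyte gate the sums were 26.4 and 122 CPM. In B cells of PBS, 8 of 10 Klrk1 UMIs and 11 of 12 Klrd1 UMIs each came from 1 cell. In empty droplets Klrk1 stood at 13.8 and 29.7 CPM. In the NK, CD8 T and CD4 T gates, free RNA estimated from S100a8 and S100a9 made up 2.19 to 3.33% of UMIs. The part of free RNA in the sums of the B, neutrophil, keratin and macrophage or monocyte gates was not tested.

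**Figure D1:**
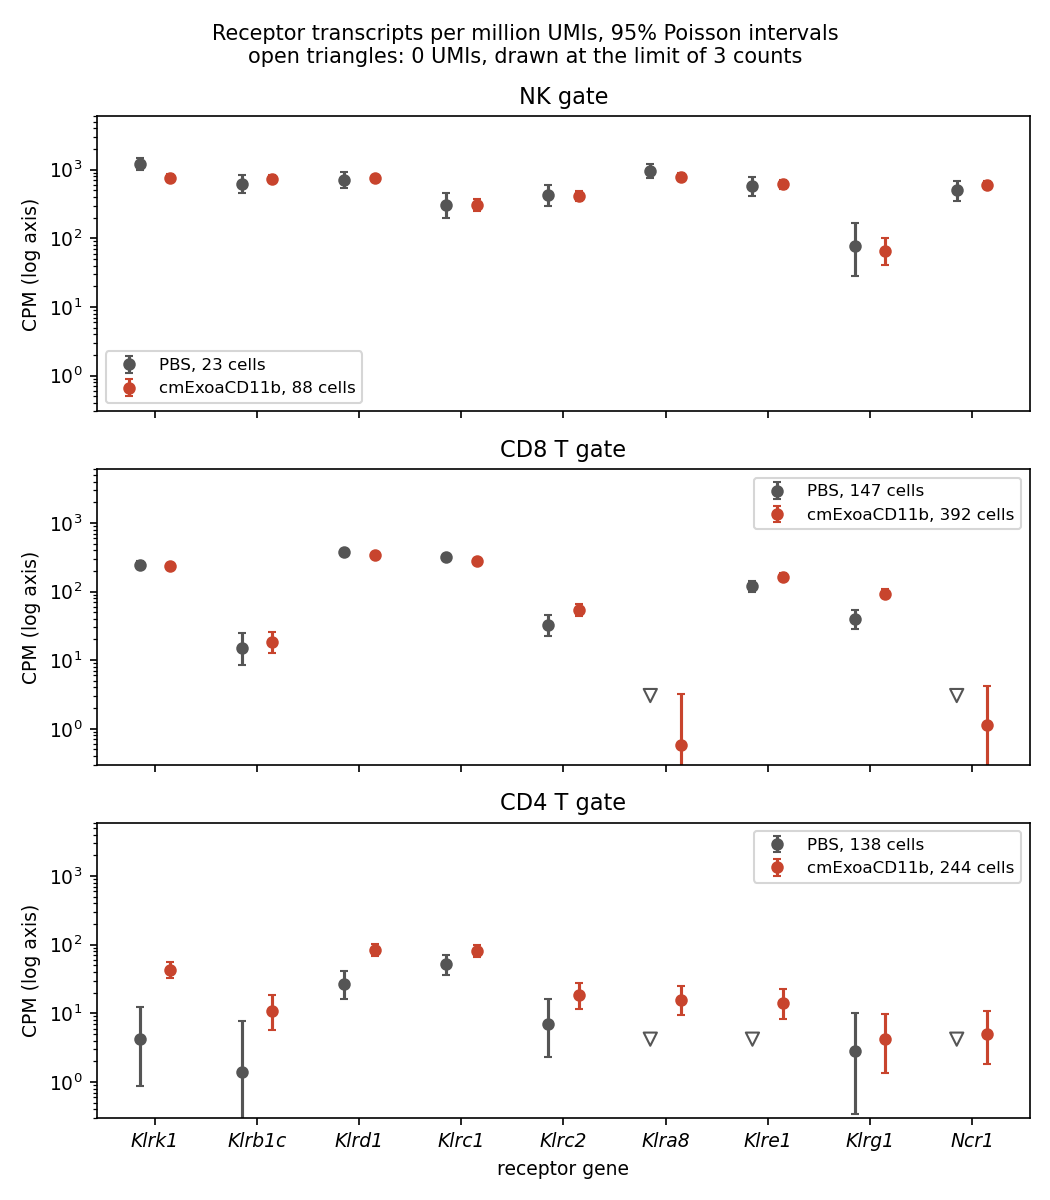
Level of each receptor gene in CPM (log axis) in the NK, CD8 T and CD4 T gates, with grey points for PBS, red points for cmExoaCD11b and bars for 95% Poisson intervals. Klra8 and Ncr1 stand at 499 CPM or more in the NK panel and at the floor of the CD8 T panel. In the CD4 T panel the red points lie above the grey points, with overlapping bars for Klrc1, Klrc2 and Klrg1 among others. Klra8, Klre1 and Ncr1 had 0 UMIs in PBS there and have open triangles at the limit of 3 counts in place of grey points. These 3 genes, Klrb1c and Klrg1 had under 20 UMIs in CD4 T cells, so nothing is read from their direction.

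**Figure D2:**
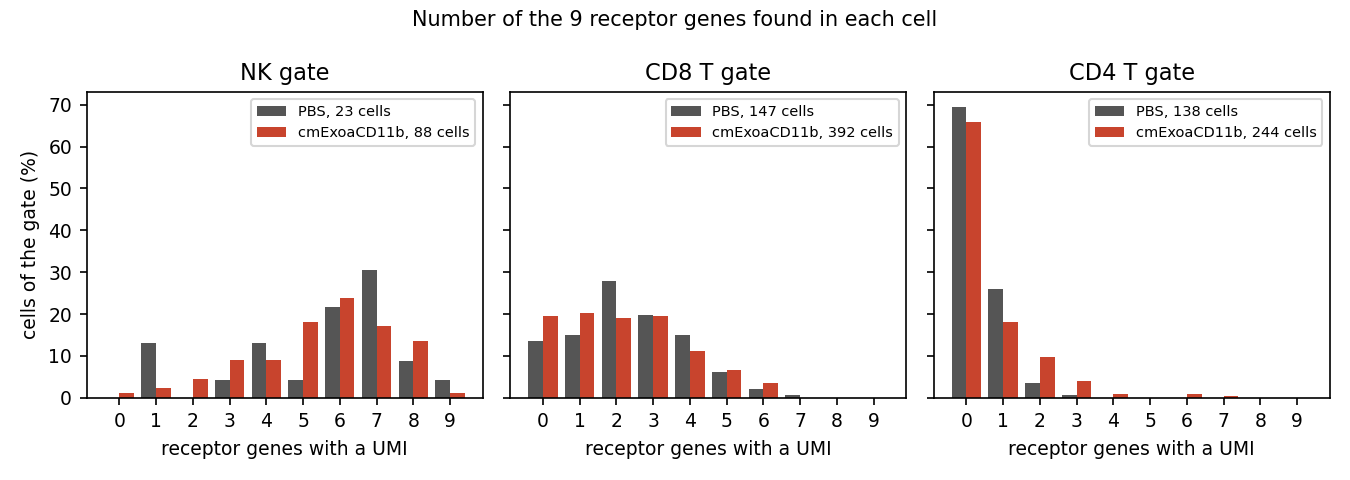
Share of cells (%) by the number of the 9 receptor genes with at least 1 UMI, in each gate and library. NK cells peak at 6 or 7 genes, CD8 T cells spread from 0 to 7 with a median of 2, and most CD4 T cells have none.

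Among the activating receptors, Ncr1 and Klra8 had the highest ratios of NK to CD8 T cells. Ncr1 encodes NKp46, an immunoglobulin-like receptor that signals through FcRγ and CD3ζ. It had 39 UMIs in PBS and 198 in cmExoaCD11b in the NK gate, or 499 CPM (355 to 683) and 596 CPM (516 to 685). In the CD8 T gate it had 0 and 2 UMIs and in the CD4 T gate 0 and 6 UMIs, so the PBS level was at least 164-fold higher in NK than in CD8 T cells, computed against 3 counts in the CD8 T gate. Its absence from 147 CD8 T cells of PBS allows a share of cells with a UMI of up to 2.04%. Klra8 encodes Ly49H, a receptor for a cytomegalovirus protein that uses the adaptor DAP12. It had 76 and 262 UMIs in the NK gate, or 973 CPM (767 to 1218) and 788 CPM (696 to 890), and 0 and 1 UMI in the CD8 T gate, at least 319-fold higher in NK cells of PBS by the same floor. In the CD4 T gate it had 0 and 19 UMIs, the latter in 1 cell, and the NK to CD4 T ratio in cmExoaCD11b was 49.8 (31.3 to 84.1) for Klra8 and 119 (53.8 to 329) for Ncr1. Klra8 was also uneven among NK cells: it was found in 10 of 23 cells of PBS, with up to 18 UMIs in a cell, and in 35 of 88 cells of cmExoaCD11b, with up to 19. All 10 of the Klra8-positive NK cells in PBS and 25 of the 35 in cmExoaCD11b also had Ncr1, whereas Ncr1 itself was found in 18 of 23 and 59 of 88 NK cells.

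Klrb1c and Klrk1 reached further into T cells. Klrb1c, which encodes the NK1.1 antigen of C57BL/6 mice, stood at 628 CPM (464 to 830) and 740 CPM (651 to 839) in the NK gate and at 15.2 CPM (8.53 to 25.1) and 18.4 CPM (12.6 to 26.0) in the CD8 T gate. The NK to CD8 T ratio was 41.2 (22.7 to 79.0) in PBS and 40.3 (27.8 to 60.2) in cmExoaCD11b. Klrk1 encodes NKG2D, which binds stress ligands of the RAE-1, H60 and MULT1 families and signals through DAP10 and DAP12. Its level was 1217 CPM (984 to 1487) and 758 CPM (668 to 858) in NK cells, 245 CPM (215 to 278) and 233 CPM (211 to 257) in CD8 T cells, and 4.20 CPM (0.867 to 12.3) and 43.3 CPM (32.3 to 56.8) in CD4 T cells. Klrk1 therefore ran NK, CD8 T, CD4 T in both libraries, with no overlap of the counting intervals between neighbors. The NK to CD8 T ratio was 4.97 (3.88 to 6.32) in PBS and 3.25 (2.77 to 3.81) in cmExoaCD11b.

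The CD94 and NKG2 genes did not all follow that order. Klrd1 encodes CD94, the partner that pairs with the inhibitory NKG2A (Klrc1) or the activating NKG2C (Klrc2) to bind Qa-1. Klrd1 stood at 717 CPM (542 to 931) and 749 CPM (659 to 848) in NK cells and at 376 CPM (339 to 416) and 341 CPM (314 to 370) in CD8 T cells, a ratio of 1.91 (1.41 to 2.53) and 2.20 (1.89 to 2.55). Klrc1 had the same order of level in both cell types, with 307 CPM (197 to 457) and 307 CPM (250 to 373) in NK cells and 320 CPM (286 to 358) and 279 CPM (255 to 305) in CD8 T cells. Its NK to CD8 T ratio of 0.960 (0.606 to 1.45) in PBS and 1.10 (0.879 to 1.36) in cmExoaCD11b included 1. Klrc2 was the NK-weighted gene of the trio, at 423 CPM (291 to 594) and 415 CPM (349 to 491) in NK cells and 32.5 CPM (22.2 to 45.9) and 54.6 CPM (44.2 to 66.7) in CD8 T cells. The Klrc2 ratio was 13.0 (7.74 to 21.8) and 7.61 (5.82 to 9.98).

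The sharing of Klrc1 and Klrc2 by single cells also differed in number. In PBS, 85 of 147 CD8 T cells had Klrc1 and 24 had Klrc2, with both in 21, and 62 of the 85 had Klrd1. In cmExoaCD11b, 173 of 392 CD8 T cells had Klrc1 and 75 had Klrc2, with both in 53, and 124 of the 173 had Klrd1. In the NK gate the order of the pair was turned around, with Klrc1 in 7 and Klrc2 in 12 of 23 cells of PBS and in 35 and 55 of 88 cells of cmExoaCD11b. Shared sequence may have affected the counts of these paralogs, and its part in the order of Klrc1 and Klrc2 was not tested. In the last 500 bases, 43.5% of the 50-base windows of Klrc1 transcripts and 20.5% of those of Klrc2 also occur in another Klrc gene. The same holds to a lesser degree for Klrb1c (17.8%, shared with Klrb1a, Klrb1b and others) and Klra8 (13.1%, shared with Klra9 and others), while the other 5 genes shared none. Klrb1c also overlaps Gm44511 on the same strand.

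Klre1 and Klrg1 completed the set. Klre1, which pairs with the KLRI proteins, stood at 576 CPM (420 to 771) and 611 CPM (530 to 701) in NK cells, 119 CPM (98.3 to 143) and 163 CPM (145 to 183) in CD8 T cells, and had 0 and 17 UMIs in CD4 T cells. Klrg1, an inhibitory receptor for cadherins that marks late effector lymphocytes, was low in NK cells, at 76.8 CPM (28.2 to 167) and 66.2 CPM (41.5 to 100). In CD8 T cells it stood at 39.6 CPM (28.2 to 54.2) with PBS and, with cmExoaCD11b, 93.1 CPM (79.3 to 109). The NK to CD8 T ratio of Klrg1 was 1.94 (0.671 to 4.61) in PBS and 0.711 (0.434 to 1.11) in cmExoaCD11b, and both intervals include 1, so the order of NK and CD8 T cells was not detectable at this depth. Against all genes with at least 20 UMIs, 8 of the 9 receptors were at least 1.5-fold higher in NK than in CD8 T cells of PBS, where 33.8% of all genes were, and 0 were lower, where 21.3% of all genes were. In cmExoaCD11b, 7 of 9 were higher, against 18.7% of all genes, and 0 lower, against 18.1%. Between CD8 T and CD4 T cells of PBS, 6 receptors reached 20 UMIs and all 6 were higher in CD8 T cells (15.9% of all genes) and 0 lower (14.4%). In cmExoaCD11b, 7 of 8 were higher (9.32%) and 1, Klra8, was lower (12.3%), the latter resting on 1 CD4 T cell with 19 UMIs. Genes that reach 20 UMIs through 1 side alone had to differ, as did Klre1 with 117 against 0 UMIs and Klrk1 with 241 against 3 in PBS, and Klra8 and Ncr1 between NK and CD8 T cells, so nothing is read from these counts.

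**Figure D3:**
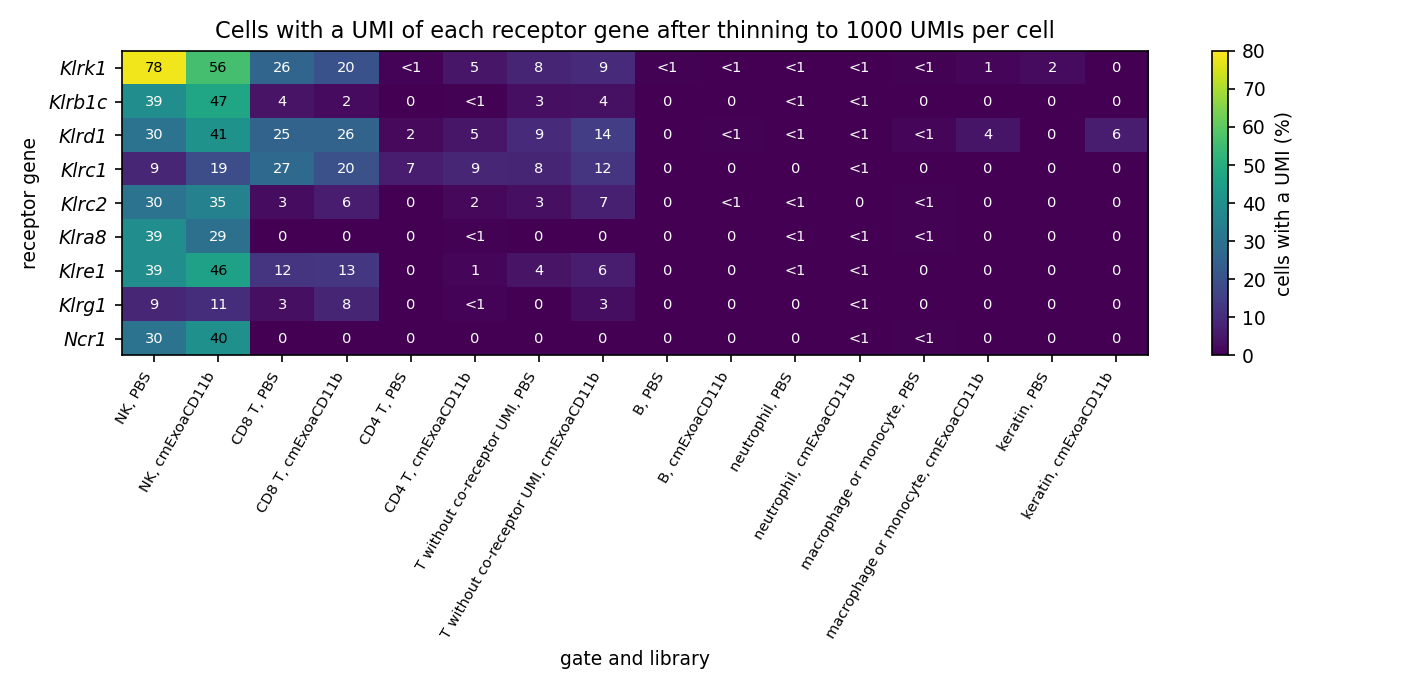
Share of cells (%) with a UMI of each receptor gene after every cell was thinned to 1000 UMIs, by gate and library. The 2 NK columns are lit for every gene, the CD8 T columns for Klrk1, Klrd1, Klrc1 and Klre1, and the B and neutrophil columns stay below 1%.

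To set shares side by side at 1 depth, each cell was thinned to 1000 UMIs. Klrk1 was then found in 78.3% (56.3 to 92.5%) and 56.5% (45.3 to 67.2%) of NK cells, 26.0% and 20.1% of CD8 T cells and 0.725% and 4.96% of CD4 T cells, against 91.3% and 86.4%, 51.0% and 43.4%, and 2.17% and 9.43% before thinning. The number of cells left out for having fewer UMIs was at most 9 in any of these gates. Klrc1 was found in 27.4% and 19.8% of thinned CD8 T cells and in 8.70% and 18.8% of NK cells. Among B cells and neutrophils the highest thinned share of any of the 9 genes was 0.613%, that of Klrd1 in B cells of cmExoaCD11b. Thinned shares of Klrd1 were higher in the keratin gate, at 0% and 6.45% (2 of 31 cells). In the macrophage or monocyte gate they were 0.948% and 4.40% (4 of 91 cells).

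Between the treatments, the NK gate differed in Klrk1. Its CPM in cmExoaCD11b was 0.623 times that in PBS (0.490 to 0.798). For the other 8 genes the ratio ran from 0.810 for Klra8 (0.625 to 1.06) to 1.19 for Ncr1, and each interval included 1. Counted at 1.5-fold with 1 UMI added to each count, 1 of 9 receptors was lower in cmExoaCD11b, against 17.6% of all genes, and 0 were higher, against 15.5%. The median ratio of the 9 was 0.968 and that of all genes 0.969. The Klrk1 ratio was 0.816 (0.645 to 1.04) when NK cells were gated by a Klrb1c UMI without CD3 chains, 0.688 (0.529 to 0.904) without cells carrying Mki67 or Top2a, 0.688 (0.548 to 0.869) without the lineage exclusion and 0.681 (0.437 to 1.09) after thinning, and in each of the 4 the 1.5-fold call was lost.

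**Figure D4:**
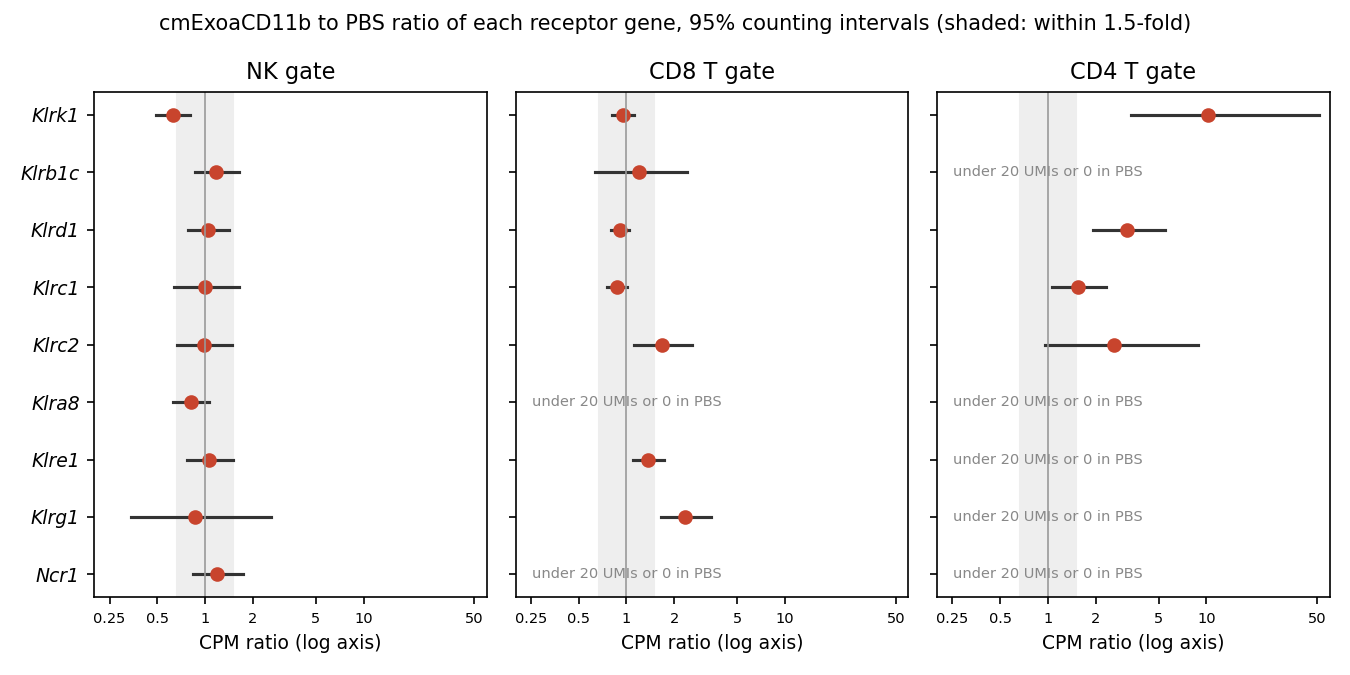
Ratio of each receptor gene's CPM in cmExoaCD11b to that in PBS (log axis) in the 3 gates, with 95% counting intervals as lines and the range within 1.5-fold shaded. The NK points lie within the band except Klrk1, Klrg1 and Klrc2 lie above it in CD8 T cells, and the 4 points in CD4 T cells lie above it.

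In CD8 T cells the 2 receptors above 1.5-fold were Klrg1 and Klrc2. Klrg1 had 39 UMIs in PBS and 162 in cmExoaCD11b, a ratio of 2.35 (1.65 to 3.42), and was found in 19 of 147 and 82 of 392 cells. Klrc2 had 32 and 95 UMIs, a ratio of 1.68 (1.11 to 2.59), and fell under 1.5-fold without dividing cells (1.37, 0.841 to 2.32), without the lineage exclusion (1.41, 0.956 to 2.11) and as a mean over single cells (1.34). Klre1 had a ratio of 1.37 (1.10 to 1.72). Klrd1, Klrc1 and Klrk1, the 3 receptors with most UMIs here, had ratios of 0.908, 0.872 (0.756 to 1.01) and 0.953 (0.810 to 1.12). In this gate 2 of 7 receptors were higher, against 15.2% of all genes, and 0 were lower, against 16%.

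Klrg1 in CD8 T cells went with granzymes, the proteases of cytotoxic granules. CD8 T cells with a UMI of Gzma, Gzmb or Gzmk were 66.7% (58.4 to 74.2%) of the gate in PBS and 78.3% (73.9 to 82.3%) in cmExoaCD11b, and 40.4% and 62.7% after thinning. Cells with a granzyme UMI held Klrg1 at 51.3 CPM (36.3 to 70.5) with PBS and, with cmExoaCD11b, 114 CPM (97.2 to 133). Cells without one held 1 and 3 Klrg1 UMIs, or 4.10 and 8.61 CPM. The ratio of Klrg1 between cells with and without granzyme was 12.5 (2.12 to 507) in PBS and 13.3 (4.46 to 65.1) in cmExoaCD11b, and the ratio between the libraries within granzyme-positive cells was 2.23 (1.55 to 3.26). Klrk1 in granzyme-positive cells had a ratio of 1.03 (0.857 to 1.23) between the libraries, while in cells without granzyme it was 230 CPM (173 to 298) with PBS and, with cmExoaCD11b, 141 CPM (104 to 186), a ratio of 0.612 (0.409 to 0.915). Klrd1 and Klre1 were also denser in granzyme-positive cells, by 1.55 (1.18 to 2.05) and 2.08 (1.22 to 3.78) in PBS and by 1.27 (1.02 to 1.59) and 1.78 (1.25 to 2.62) in cmExoaCD11b. Median depths were 5346 and 4014 UMIs with and without granzyme in PBS and 3803 and 3816 in cmExoaCD11b, and the part of depth in the PBS split was not tested.

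**Figure D5:**
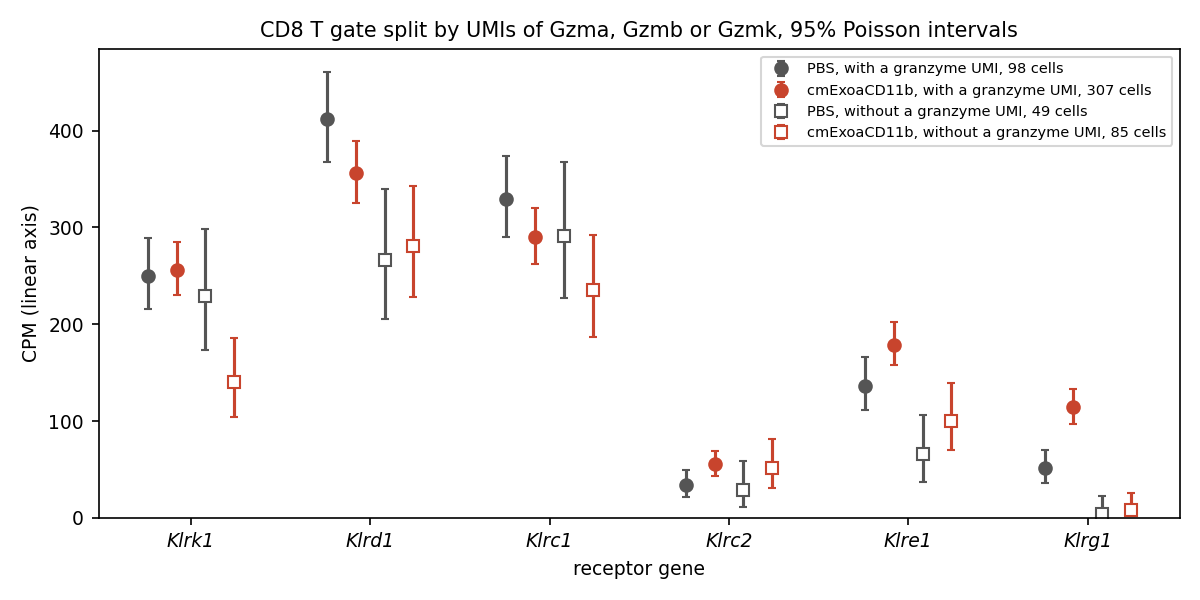
CPM (linear axis) of 6 receptor genes in CD8 T cells with (filled circles) and without (open squares) a UMI of Gzma, Gzmb or Gzmk, grey for PBS and red for cmExoaCD11b, with 95% Poisson intervals. Klrg1 is near 0 in both libraries without granzyme and reaches 51.3 and 114 CPM with it.

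In CD4 T cells the summed CPM of the receptors was low in PBS and higher in cmExoaCD11b. The share of cells with a UMI of any receptor was closer, at 30.4% in PBS and 34.0% in cmExoaCD11b. Klrc1, the receptor found in most cells, was in 18.8% and 20.9% of them. Klrk1 had 3 UMIs in 3 of 138 cells in PBS and 52 UMIs in 23 of 244 cells in cmExoaCD11b, a ratio of 10.3 (3.34 to 51.6), with at most 10 UMIs in a cell. Klrd1 had 19 and 101 UMIs, or 26.6 and 84.1 CPM, a ratio of 3.16 (1.92 to 5.46), which was 1.43 (0.523 to 4.48) after thinning to 1000 UMIs per cell. Klrc1 had 37 and 97 UMIs, or 51.8 and 80.8 CPM, a ratio of 1.56 (1.06 to 2.34), and Klrc2 had 5 and 22 UMIs, a ratio of 2.61 (0.966 to 8.84). These were the 4 receptors with at least 20 UMIs, and all 4 were above 1.5-fold and 0 below, where 12.0% and 9.39% of all genes were. Since Klrk1, Klrd1 and Klrc2 reached 20 UMIs through cmExoaCD11b, where they were the higher, nothing is read from this count. Of the 23 Klrk1-positive CD4 T cells in cmExoaCD11b, 15 had Klrd1 and 12 had Klrc1.

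A few CD4 T cells with NK-type receptors weighed on these sums. In cmExoaCD11b all 19 Klra8 UMIs were in 1 cell and the 17 Klre1 UMIs in 6 cells, and the cell count with at least 6 of the receptors was 3 of 244 against 0 of 138. Without the 1 cell of PBS and 6 cells of cmExoaCD11b that had a UMI of Ncr1, Klra8 or Klrb1c, an alternative chosen after seeing the data, the Klrk1 ratio was 6.23 (1.94 to 31.8), the Klrd1 ratio 2.95 (1.76 to 5.20) and the Klrc1 ratio 1.51 (1.02 to 2.28). The same step in CD8 T cells left out 9 and 26 cells and gave 2.56 (1.75 to 3.86) for Klrg1.

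Around the receptors, 17 of 19 other genes of their families were listed. In the NK gate 8 of them had at least 20 UMIs, with 2 higher and 2 lower in cmExoaCD11b by 1.5-fold, where 15.5% and 17.6% of all genes were. Klra4, which encodes the activating Ly49D, had 40 and 271 UMIs, 512 and 816 CPM, a ratio of 1.59 (1.14 to 2.28), and Klrb1a a ratio of 1.96 (0.839 to 5.59). Klra7, which encodes the inhibitory Ly49G, stood at 461 and 271 CPM (0.587, 0.395 to 0.890) and Klrb1b, an inhibitory receptor for Clec2d, at 384 and 202 CPM (0.525, 0.336 to 0.836). In CD8 T cells, 4 had enough UMIs and 2 were lower (all genes 16%), Klra9 (0.452, 0.219 to 0.919) and Klri2 (0.292, 0.149 to 0.550), and in CD4 T cells none had enough UMIs.

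The adaptors differed in how they ran across the cell types. Tyrobp, which encodes DAP12, stood at 1357 and 1321 CPM in NK cells, 38.6 and 65.5 CPM in CD8 T cells and 60.2 and 48.3 CPM in CD4 T cells. Hcst, which encodes the DAP10 that NKG2D uses, was alike in the NK, CD8 T and CD4 T gates. It stood at 410 and 313 CPM in NK cells, 389 and 393 CPM in CD8 T cells and 399 and 334 CPM in CD4 T cells. In B cells Hcst was lower, at 32.2 and 18.8 CPM. Cd247, which encodes CD3ζ, stood at 218 and 316 CPM in NK cells, 235 and 354 CPM in CD8 T cells and 507 and 573 CPM in CD4 T cells. Of 14 adaptor and proximal signaling genes tested in NK cells, 1 was higher (Vav1) and 2 lower (Zap70 and Ptpn6) in cmExoaCD11b, again where 15.5% and 17.6% of all genes were. In CD8 T cells 4 of 13 were higher: Tyrobp (1.70, 1.17 to 2.52), Fcer1g (1.65, 1.24 to 2.21), Cd247 (1.51, 1.29 to 1.76) and Inpp5d, which encodes the phosphatase SHIP1 (1.53, 1.31 to 1.79), and Syk was lower (0.565, 0.265 to 1.21), where 15.2% and 16% of all genes were. Tyrobp and Fcer1g are abundant in myeloid cells, and in the same CD8 T gate the myeloid genes Lyz2, Cst3 and Fcgr3 went from 125 to 214 CPM, from 103 to 153 CPM and from 13.2 to 27.6 CPM. Their part in the Tyrobp and Fcer1g ratios was not tested. In CD4 T cells 1 of 13 was higher, Zap70 (1.65, 1.24 to 2.20), against 12.0% of all genes.

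Ligands of the receptors were read in all gates. H2-T23, which encodes the Qa-1 that CD94 and NKG2 bind, ranged from 90.8 CPM in neutrophils of PBS to 320 CPM in CD8 T cells of cmExoaCD11b, and its CPM in cmExoaCD11b was the higher in each of the 8 gates, with overlapping intervals in the NK, CD4 T and keratin gates. Of the NKG2D ligands, Raet1e reached 84.4 and 126 CPM in CD8 T cells and 16.5 and 26.8 CPM in cells gated by keratin genes. Ulbp1, the gene of MULT1, stood at 26.4 and 23.6 CPM in CD8 T cells and 1.73 and 4.23 CPM in the keratin gate. Raet1d, H60b and H60c were not detectable at this depth in the NK and CD8 T gates (0 UMIs). Raet1d had 20 and 3 UMIs in the macrophage or monocyte gate, or 6.86 and 2.76 CPM, a ratio of 0.403 (0.0766 to 1.36). Cdh1, which encodes the E-cadherin that KLRG1 binds, stood at 217 and 239 CPM in cells gated by keratin genes and at 39.6 and 20.7 CPM in CD8 T cells. Of the 12 ligand genes, 0 of 4 tested were higher and 2 (Clec2d and Clec2i) lower in NK cells, where 15.5% and 17.6% of all genes were. In CD8 T cells 0 of 7 were higher and 1 (Cdh1) lower, where 15.2% and 16% were. In CD4 T cells 0 of 7 differed by 1.5-fold, where 12.0% of all genes were higher and 9.39% lower.

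Other receptors of NK and T cells, fixed as a list of 14, included those for the delivered cytokine. Il12rb2, a chain of the IL-12 receptor, had 19 and 204 UMIs in NK cells, a ratio of 2.52 (1.57 to 4.28), while it had a ratio of 1.27 (1.03 to 1.58) in CD8 T cells and 0.639 (0.521 to 0.783) in CD4 T cells. Il18rap had ratios of 2.15 (1.41 to 3.43) in NK cells and 1.68 (1.40 to 2.03) in CD8 T cells. Cd69, an early activation marker, stood at a ratio of 0.455 (0.315 to 0.664) in NK cells and 1.78 (1.56 to 2.03) in CD8 T cells. In NK cells 4 of 10 tested were higher (Cd226, Il2rb, Il12rb2 and Il18rap, of which Il2rb is also a gate gene) and 2 lower (Fcgr3 and Cd69), where 15.5% and 17.6% of all genes were. The shares of all genes leave out the gate genes, so Il2rb is in the count of the list and not in the shares. In CD8 T cells 4 of 14 were higher (Slamf7, Fcgr3, Cd69 and Il18rap) and 1 lower (Cd160), where 15.2% and 16% of all genes were. In CD4 T cells 0 of 11 were higher and 3 lower (Fcgr3, Il12rb1 and Il12rb2), where 12.0% and 9.39% were.

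Over 16 points, 8 gates in both libraries, each receptor was compared with 13131 genes by Pearson's r of log2(CPM + 10). These genes had at least 50 UMIs over the gated cells. Genes that set the gates, such as Nkg7, Gzma and Prf1, were left out and could not be a nearest gene. The points share libraries and the cell types set most of the spread, so r is given as a description. Ncr1 and Klra8 were each other's nearest gene (r = 0.994). Klrk1 was nearest to Klrd1 (r = 0.974), Klre1 to Klrc2 (r = 0.968), Klrb1c to Klra3 (r = 0.993) and Klrc2 to Samd3 (r = 0.987). Klrc1 was nearest to Gzmb, a granzyme (r = 0.965), and Klrg1 to Wdr95 (r = 0.967).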

How the data were processed

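Both libraries were made with the 10x Chromium 3′ kit (v3 chemistry), 1 per treatment, each from 3 pooled mice. The authors deposited raw UMI counts per gene and barcode, neither normalized nor filtered, and the headers name Cell Ranger 7.1.0, whereas the methods name another version. The genome build is not given in the sources used here.

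Of 644248 barcodes in PBS (67143628 UMIs) and 723594 in cmExoaCD11b (81288480 UMIs), cells were called by a ranked-UMI cut-off plus a test against empty droplets (false discovery rate 0.01, at least 500 UMIs, 10000 simulations). Barcodes with under 200 genes or over 20% mitochondrial UMIs were dropped. Scrublet's automatic threshold marked 0 cells, so the highest scores, 0.8% per 1000 cells, were removed (421 and 452 cells). The kept cells held 50275389 and 62441858 UMIs. The lymphocyte gates excluded cells with S100a8 and S100a9 at 1% of UMIs or more, or with more than 1 UMI of B cell or myeloid markers. CD8 T cells needed a UMI of a CD3 chain and of Cd8a or Cd8b1 and none of Cd4, and CD4 T cells the converse. A cell in 2 gates was in neither.

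UMIs were summed per gate and library. CPM have exact Poisson intervals, shares exact Clopper-Pearson intervals and ratios exact conditional intervals, all at 95%. A gene was counted as higher or lower at 1.5-fold after 1 UMI was added to each count, with at least 20 UMIs over both sides. The shares of all genes counted this way leave out the genes that set the gates. With 1 library per treatment there is no p-value. The receptors, lists and motifs were chosen with earlier results of these data known, and the genes named are the 9 receptors, every gene past 1.5-fold in a list or of direct use to a receptor, and the nearest genes by r. Scripts were tested on simulated data. Python 3.11.15, numpy 2.4.6, scipy 1.17.1, pandas 2.3.3, scanpy 1.11.5 and matplotlib 3.10.9 were used. Alternatives varied the cell call, filters, gates, free-RNA subtraction, depth and thresholds.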

Additional observations from a re-analysis of the deposited data

Results flagged for a closer look

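The Klrk1 ratio was below 1 in NK cells and above 1 in CD4 T cells. Its CPM in cmExoaCD11b was 0.623 times that in PBS (0.490 to 0.798) in the NK gate and 10.3 times (3.34 to 51.6) in the CD4 T gate, and the difference between the gates was not tested. The NK value rests on 23 cells of PBS, and its 1.5-fold call was lost under some alternatives given above. Of the 9 receptors, only Klrk1 was at least 1.5-fold lower in NK cells, where 17.6% of all genes were. Among other genes of their families, Klra7 and Klrb1b were also lower there by 1.5-fold, and Klra4 and Klrb1a were higher. The CD4 T value rests on 3 UMIs in PBS and was 6.23 without cells that had a UMI of Ncr1, Klra8 or Klrb1c.

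Cells outside the NK, CD8 T and CD4 T gates also carried receptor UMIs. In the macrophage or monocyte gate, Klrk1 had 26 UMIs in 9 of 216 cells of PBS and 57 UMIs in 16 of 91 cells of cmExoaCD11b, a ratio of 5.88 (3.64 to 9.75), with 18 of the 57 in 1 cell. Klrd1 had 22 UMIs in 6 cells and 70 UMIs in 11 cells, a ratio of 8.54 (5.22 to 14.5), with 20 of the 70 in 1 cell. Klra8, Ncr1 and Klrb1c had 6, 3 and 6 UMIs in that gate in PBS, each in 1 cell, and 0 in cmExoaCD11b. After thinning, Klrk1 was found in 1 of 211 and 1 of 91 cells and Klrd1 in 2 and 4. The gate held 2914247 UMIs in PBS and 1085810 in cmExoaCD11b. Of the lymphocyte signaling genes there, Lck had 2 and 11 UMIs, a ratio of 14.8 (3.22 to 137). Cd247 had 2 and 3 UMIs (4.03, 0.461 to 48.2) and Sh2d1a had 2 and 0. Of the cytokine receptor genes, Il2rb had 0 and 6 UMIs, Il12rb2 had 3 and 13 and Il18r1 had 5 and 14. Il18rap had 26 and 28 UMIs and Il12rb1 had 7 and 2. The part of lymphocytes in the values of this gate was not tested. In T cells without a UMI of Cd4, Cd8a or Cd8b1 (99 and 250 cells), the ratio was 1.75 (1.14 to 2.76) for Klrk1, 1.70 (1.19 to 2.47) for Klrd1 and 3.68 (1.14 to 18.9) for Klrg1, the last from 3 and 29 UMIs.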

How the results depend on the processing

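The NK ratios rest on 23 cells in PBS, and no alternative addresses the spread between mice. No paired analysis was possible because each treatment is 1 library of a different pool of mice. The count of receptors past 1.5-fold was 1 of 9 tested in NK, 2 of 7 in CD8 T and 4 of 4 in CD4 T cells. The share of all genes was counted under this main setting alone, so nothing is read from the counts under alternatives. With the ranked-UMI cell call and no test against empty droplets, which left 2 and 6 NK cells, the NK sum ratio was 0.617, the counts in NK and CD4 T cells were 2 and 2, the Klre1 ratio in CD8 T cells turned to 0.904, the NK to CD8 T ratio in cmExoaCD11b was 2.78 and the CD8 T to CD4 T ratio in PBS 16. Stricter gates gave a CD4 T sum ratio of 2.23 and a CD8 T to CD4 T ratio in cmExoaCD11b of 5.70, and a looser NK gate gave an NK to CD8 T ratio there of 3.60. Gates by the marker genes that the methods name, applied to single cells (Klrb1c without CD3 chains for NK), gave an NK sum ratio of 1.09, an NK count of 0 and an NK to CD8 T ratio in PBS of 4.08. Klrb1c is itself among the receptors summed and counted, so these NK values include UMIs that the gate required. Without the lineage exclusion, the sum ratios were 0.956 in CD8 T and 4.32 in CD4 T cells, the counts were 0, 1 and 8 in NK, CD8 T and CD4 T cells, the NK to CD8 T ratios 5.45 in PBS and 5.66 in cmExoaCD11b, and the CD8 T to CD4 T ratio in cmExoaCD11b 2.99. Thinning to 1000 UMIs gave counts of 2 in NK and 0 in CD4 T cells, where only 2 receptors could be counted, a CD8 T sum ratio of 0.852 and an NK to CD8 T ratio in PBS of 3.72. Means over single cells gave a CD8 T sum ratio of 0.957 and a count of 1. Without dividing cells the counts were 0 in NK and 1 in CD8 T cells, the CD8 T sum ratio 0.952 and the NK to CD8 T ratio in PBS 4.15. A minimum of 10 UMIs gave a CD4 T count of 7, and a 2-fold threshold gave counts of 0 in NK and 1 in CD8 T cells. Leaving out T cells with Ncr1, Klra8 or Klrb1c, chosen after seeing the data, gave a CD4 T sum ratio of 2.19. The causes were not tested. Over its 11 alternatives the Klrk1 ratio ran from 0.570 to 0.816 in NK and from 5.16 to 15.6 in CD4 T cells, and that of Klrg1 in CD8 T cells from 1.60 to 2.57. In CD4 T cells the Klrd1 ratio ran from 1.43 to 5.35. Of 237 values for single receptors under alternatives, 217 stayed within the counting interval of the main value, 19 moved past it and 1 reversed. Some of these intervals are wide, such as 3.34 to 51.6 for Klrk1 in CD4 T cells. The alternatives also share most of their cells, so nothing is read from this tally.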
